A study of Mus musculus with 4 samples.

Results

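Heat shock proteins, their DnaJ partners and the CCT chaperonin are the machinery that folds proteins in the cell, and 83 of the 45773 genes in the tables were chosen by name as its members: symbols beginning with Hspa, Hspb, Hspd, Hspe, Hsph, Hsp90, Dnaja, Dnajb, Dnajc or Cct2 to Cct8, without pseudogene names. Of these, 65 had a mean of at least 1 TPM (a level per transcript length that sums to the same total in each library) over the 4 libraries and are called measured. The other 18 had a mean of at most 0.830 TPM, and 7 of them were listed at 0 in all libraries. The 4 libraries were SMART-seq profiles of CD8 T cells from mouse tumours, 1 library per group. In the gain experiment, CD8 T cells of Pmel-I mice, whose transgenic receptor recognises gp100, a protein of melanocytes, received either MigRI, a retroviral vector without insert, or Klf4, a Kruppel-like transcription factor. They were transferred on day 7 into Rag2 KO mice, which have no T or B cells of their own, bearing MC38 colon carcinoma that expresses gp100, and GFP-positive cells were isolated from the tumour on day 15. In the loss experiment, PD1-positive CD8 T cells came from MC38 tumours on day 14, in Control (WT) mice or in mice labelled Klf4 cKO (the cKO-labelled library). The Cre driver, the deleted part of Klf4, the number of mice behind each library and their age were not stated in the labels. Each tumour began with 300000 injected cells, and each library with 10000 to 20000 T cells.

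As background, HSP70 proteins bind unfolded stretches of other proteins in cycles driven by ATP. J proteins (Dnaja, Dnajb, Dnajc) bring substrates to HSP70 and start its ATPase, and HSP110 proteins and Bag proteins release the nucleotide. HSP90 completes the folding of kinases and receptors, the chaperonins CCT and HSP60 with HSP10 fold proteins inside a closed ring, and small heat shock proteins hold unfolded proteins until HSP70 takes them over. Heat shock factor 1 (Hsf1) switches on the stress-inducible members, here Hspa1a, Hspa1b, Dnajb1, Hsph1, Hspd1 and Hspe1, through heat shock elements. Tissue digestion and sorting are known to induce several of them.

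A heat shock element is a run of alternating 5-base units, and runs of 2 or 3 units, NGAAN alternating with its reverse complement NTTCN and beginning with either, were searched on both strands in the 250 bases before each start in the RefSeq promoter table (GRCm38.p6, which is mm10). A match of 3 units always holds matches of 2 units. Of the 83 members, 68 were in that table. A match of 2 units lay before 17 of these 68 genes (25%) and before 14.4% of all 27025 genes. For 3 units the shares were 4.41%, namely Hspd1, Hspe1 and Dnajb6, and 0.511%. Among the 6 stress-inducible members, 5 had a match of 2 units. The window of Dnajb1 had no such letters. The stretches before Hspa1a (chr17:34972157-34972406, minus strand) and Hspa1b (chr17:34959239-34959488, minus strand) are shown because these neighbouring genes, almost at the same level in 3 of the 4 libraries, differ little there: 247 of 250 bases were identical. Sequences run 5′ to 3′ on the strand of the gene, end at the base before the start, and carry the element in capitals.
Hspa1a: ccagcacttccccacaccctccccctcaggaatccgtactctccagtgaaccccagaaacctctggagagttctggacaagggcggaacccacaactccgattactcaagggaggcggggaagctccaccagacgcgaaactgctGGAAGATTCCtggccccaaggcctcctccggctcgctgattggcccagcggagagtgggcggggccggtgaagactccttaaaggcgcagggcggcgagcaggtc
Hspa1b: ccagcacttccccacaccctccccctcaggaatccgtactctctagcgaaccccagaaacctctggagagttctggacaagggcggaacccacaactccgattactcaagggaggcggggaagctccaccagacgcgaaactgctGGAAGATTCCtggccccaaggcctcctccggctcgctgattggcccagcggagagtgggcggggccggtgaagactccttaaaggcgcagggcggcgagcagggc

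Sites of 30 bases or fewer are shown for members whose results are described below. Hspe1 and Hspd1 point away from each other on chromosome 1 and share 1 stretch of alternating units that holds 2 overlapping matches of 3 units. It ends 70 bases before the start of Hspe1 (chr1:55088053-55088082, plus strand). The stretch lies between the Hspd1 starts at 55087932 and 55088243, 125 bases before the former and within the annotated bounds of Hspd1. Dnajb6 holds 1 match of 3 units (chr5:29735844-29735872, plus strand). Hsph1 (chr5:149636351-149636380, minus strand) has 1 match of 2 units, and Hspb1 (chr5:135887801-135887830, plus strand) has a pair of them.
Hspe1 and Hspd1: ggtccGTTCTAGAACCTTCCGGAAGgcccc
Dnajb6: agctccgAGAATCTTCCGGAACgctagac
Hsph1: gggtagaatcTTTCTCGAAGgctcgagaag
Hspb1: AGAAGTTTCCagatgggggcAGAACCTTCC
Matches of letters are a description and do not show binding.

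With 1 library per group no difference has a replicate check, no p-value was computed, and every direction describes 1 library against another. Read depth cannot be had from TPM and is unknown here. Over all 12570 measured genes the median difference of log2(TPM + 1) was 0.79 for Klf4 over MigRI and 0.74 for the cKO-labelled library over control. Differences below are relative to these medians unless called deposited, and a relative difference of at least 1 log2 (2-fold) is called higher or lower. Klf4 was at 8.69 TPM (MigRI) and 26.05 TPM (Klf4), and at 7.52 TPM (control) and 9.28 TPM (cKO-labelled), so its level does not check the cKO label. Its relative log2 differences were 0.69 and -0.47, neither of them 2-fold. The first was 1.48 as deposited and 0.04 against genes of like coding length. The 8 CD8 T cell markers, none of them at 0 in a library, summed to 23790.1 TPM in MigRI, 5651 TPM with Klf4, 7515 TPM in control and 17397 TPM in the cKO-labelled library; all 8 were lower with Klf4, and 4 were higher and 1 lower in the cKO-labelled library. In the same order, 15 macrophage markers summed to 1923, 7868, 998 and 2072 TPM, 9 fibroblast and endothelial markers to 140.2, 1328, 32.4 and 252 TPM, and 8 early response genes of the Fos and Jun kind to 1461, 8697, 504 and 1589 TPM. Of the measured markers, 10 of 14 macrophage, 7 of 8 fibroblast and endothelial and 6 of 8 early response genes were higher with Klf4, and 6, 2 and 2 were higher in the cKO-labelled library. Of all measured genes 21.4% were higher and 23.6% lower with Klf4, and 12.4% and 16.2% in the cKO-labelled library. The endothelial gene Pecam1 was lower with Klf4, at 1.46 TPM (MigRI) and 0.855 TPM (Klf4), and Cdh5, also endothelial, was not measured. No macrophage marker was at 0, and 1 fibroblast and endothelial marker was, in control. The 8 mast cell and neutrophil markers summed to 29.03, 154, 29.6 and 46.9 TPM, with 3 at 0 in MigRI and 4 in control, and the 5 tumour epithelium markers to at most 7.08 TPM. Every cell type makes chaperones, and the part of these other cells, or of the early response, in the differences below was not tested. In such bulk samples fewer cells of a type and less RNA per cell cannot be told apart.

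The 83 members took 0.665% of all TPM in MigRI, 0.987% with Klf4, 0.437% in control and 0.556% in the cKO-labelled library. The highest members differed between libraries. In MigRI they were Hspe1, Dnajc15 and Hsp90ab1, and with Klf4 they were Hsp90ab1, Hspa8 and Hspe1. In control they were Dnajc15, Hspe1 and Dnajc19, and in the cKO-labelled library Dnajc15, Hsp90ab1 and Hspe1. Hspe1, Dnajc15 and Dnajc19, which encode small mitochondrial proteins and were grouped after their values were seen, held 63.7% of the members' TPM in control, 33.2% in MigRI, 27.5% in the cKO-labelled library and 10.5% with Klf4.

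Counted over the 65 measured members, 16 (24.6%) were higher and 11 (16.9%) lower with Klf4, where 21.4% and 23.6% of all measured genes were. In the cKO-labelled library, 13 (20%) were higher and 5 (7.69%) lower, beside 12.4% and 16.2% of all genes. The first share with Klf4 was close to that of all genes, so it is no result about the members. Medians over the measured members were 0.25 and 0.52, and the first was 0.00 against genes of like coding length. As deposited, 33 were higher and 5 lower with Klf4 (all genes 43.7% and 10.3%), and 41 and 1 in the loss experiment (all genes 38.4% and 6.92%). At a filter of 5 TPM the 13 became 5 of 57 (8.77%, all genes 8.28%). At 10 TPM they became 1 of 49 (2.04%, all genes 6.50%), so that count rests on the filter. Called under every alternative that kept them were 7 of the 16 (Dnajb1, Dnajb2, Dnajb14, Dnajc14, Dnajc22, Hspa9 and Hspb8) and 5 of the 11 (Dnajb13, Dnajc1, Dnajc9, Dnajc15 and Dnajc19) with Klf4, and Dnajc12 and Hspb1 (higher) and Dnajc19 (lower) in the loss experiment.

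**Figure D1:**
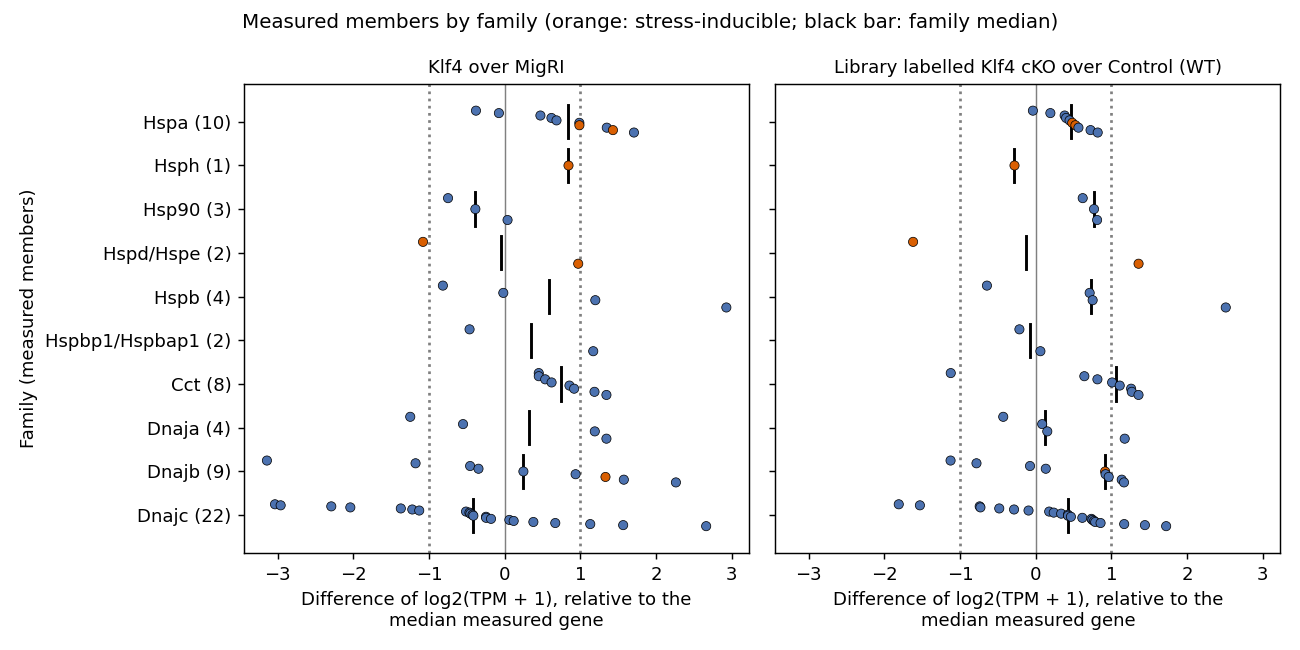
Relative differences of the 65 measured members by family for both comparisons; points are genes, black bars family medians, dotted lines the 2-fold limits. Cct genes lie to the right of 0 with Klf4 (median 0.74, but 0.01 against genes of like coding length, where Cct5, Cct7 and Cct8 lie below 0), while Dnajc genes spread from -3.03 to 2.66.

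Among the 6 stress-inducible members, 5 had more TPM with Klf4 than in MigRI, and the exception was Hspe1; 71.0% of all measured genes also had more, so the count is no result about these 6. Hspa1a, an inducible cytosolic HSP70, was at 5.63 TPM (MigRI) and 21.8 TPM (Klf4), and at 9.57 TPM (control) and 23.6 TPM (cKO-labelled). Its copy Hspa1b was at 5.71 TPM (MigRI) and 30.4 TPM (Klf4), and at 9.78 TPM (control) and 24.8 TPM (cKO-labelled). The pair was low in MigRI and control and high in the other library of each experiment, with relative log2 differences of 0.99 and 0.48 for Hspa1a and of 1.43 and 0.52 for Hspa1b (Klf4 over MigRI first, then the cKO-labelled library over control). Only the Hspa1b difference with Klf4 passed 2-fold, and it was 0.94 against genes of like coding length. The transcripts of the pair are identical at 98.9% of 2214 aligned positions, so the counting could split reads between them, and the separate values are uncertain. Both genes lie on mm10 chromosome 17, on the minus strand, Hspa1a from 34969190 to 34972156 and Hspa1b from 34956436 to 34959238.

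Dnajb1, the J protein HSP40 that works with inducible HSP70, was at 45.1 TPM (MigRI) and 200.3 TPM (Klf4), and at 16.97 TPM (control) and 55.5 TPM (cKO-labelled). It was higher with Klf4 by 1.33 log2, and its difference in the loss experiment was 0.92. Hsph1, an HSP110 that releases nucleotide from HSP70, was at 8.56 TPM (MigRI) and 28.6 TPM (Klf4), and at 7.24 TPM (control) and 10.3 TPM (cKO-labelled). These differences were 0.84 and -0.28, and the sign of the second turned to 0.45 as deposited. The median relative difference of the 6 members was 0.98 for Klf4 over MigRI and 0.50 for the cKO-labelled library over control, where the median of all measured genes is 0 by construction. Against genes of like coding length these medians were 0.49 and 0.45, and with a filter of 10 TPM the second was 0.05. Each comparison had 1 of the 6 called lower, Hspe1, while Hspa1b and Dnajb1 were called higher with Klf4 and Hspd1 in the cKO-labelled library. Of all genes 23.6% were lower and 21.4% higher with Klf4, and 16.2% and 12.4% in the cKO-labelled library.

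**Figure D2:**
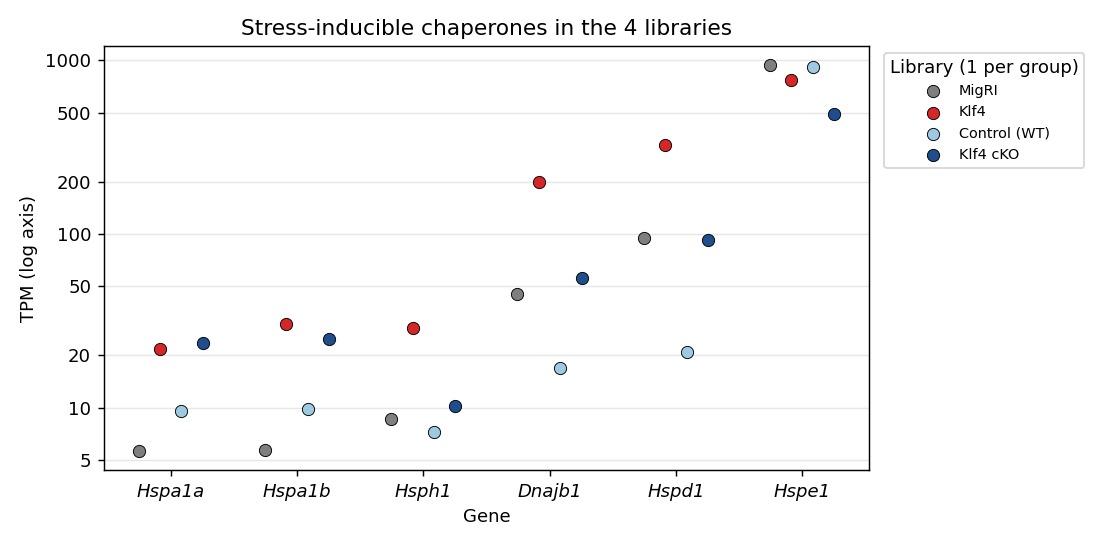
TPM (log axis) of the 6 stress-inducible members, 1 point per library and no error bars because each group has 1 library. For Hspa1a, Hspa1b, Hsph1, Dnajb1 and Hspd1 the Klf4 point lies above the MigRI point, while for Hspe1 it lies below, at 769 against 937 TPM.

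Hspd1 and Hspe1, which encode HSP60 and its lid HSP10 in the mitochondrial matrix, differed in opposite directions in both experiments, and are neighbours with the shared stretch printed above. Hspd1 was at 95.01 TPM (MigRI) and 325 TPM (Klf4), and at 20.9 TPM (control) and 92.6 TPM (cKO-labelled). Hspe1 was at 937 TPM (MigRI) and 769 TPM (Klf4), and at 911 TPM (control) and 493 TPM (cKO-labelled). For Hspd1 the relative log2 differences were 0.97 and 1.36, and for Hspe1 -1.08 and -1.62. The ratio of Hspe1 to Hspd1 within a library, which no scaling between libraries can change, was 9.86 in MigRI, 2.36 with Klf4, 43.6 in control and 5.32 in the cKO-labelled library. Hspe1 has the shortest coding sequence of the measured members, 306 nucleotides against 1719 for Hspd1, and the shortest genes as a class were low in the same libraries. Relative to genes of like coding length, the Hspe1 difference with Klf4 turned to 0.25, and that in the loss experiment was -1.004. Exons of both genes overlap by 112 bases on opposite strands, and the kit does not mark strand. A pseudogene row, Hspd1-ps3, was at 9.80 TPM in MigRI, 25.3 TPM with Klf4, 2.91 TPM in control and 6.43 TPM in the cKO-labelled library, and could share reads with Hspd1.

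Among the 10 measured HSP70 genes, 3 were higher with Klf4 and 0 lower, beside 21.4% and 23.6% of all genes, with a median of 0.84. In the loss experiment 0 were called, where 12.4% of all genes were higher and 16.2% lower, and the median was 0.46. Beside genes of like coding length 1 of the 3, Hspa9, was still higher with Klf4, and the median was 0.42. Hspa8, the constitutive cytosolic HSC70, was at 314 TPM (MigRI) and 1081 TPM (Klf4), and at 148 TPM (control) and 365 TPM (cKO-labelled), relative log2 differences of 0.99 and 0.56. Hspa5, or BiP, the HSP70 of the endoplasmic reticulum, was at 243 TPM (MigRI) and 649 TPM (Klf4), and at 67.9 TPM (control) and 202 TPM (cKO-labelled), relative log2 differences of 0.62 and 0.82. Both were highest with Klf4 and lowest in control. Hspa9, the mitochondrial HSP70 that pulls proteins through the import channel, was at 26.4 TPM (MigRI) and 154 TPM (Klf4), and at 10.6 TPM (control) and 25.4 TPM (cKO-labelled). Its difference of 1.71 with Klf4 was the largest among the HSP70 genes, and it was 0.45 in the loss experiment. The inducible pair together held 0.0361 of the Hspa8 level in MigRI and 0.0482 with Klf4, against 0.131 in control and 0.133 in the cKO-labelled library. The ratio of inducible to constitutive HSP70 was thus larger in both libraries of the loss experiment than in both of the gain experiment, which were made from other cells.

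None of the 3 HSP90 genes was called in either comparison. Of all genes 21.4% were higher and 23.6% lower with Klf4, and 12.4% and 16.2% in the cKO-labelled library. Against genes of like coding length Hsp90aa1 was lower with Klf4, at -1.10, and Hsp90b1 was higher in the loss experiment, at 1.02. Hsp90ab1, the constitutive cytosolic HSP90, was at 706 TPM (MigRI) and 1258 TPM (Klf4), and at 241 TPM (control) and 686 TPM (cKO-labelled). Hsp90aa1, the cytosolic form that heat shock raises, was at 279 TPM (MigRI) and 288 TPM (Klf4), and at 113 TPM (control) and 289.9 TPM (cKO-labelled). With Klf4 the relative log2 differences were 0.04 and -0.75, and the latter was 0.05 as deposited. In the loss experiment they were 0.77 and 0.62. Hsp90b1, the HSP90 of the endoplasmic reticulum, was at 289 TPM (MigRI) and 383 TPM (Klf4), and at 74.4 TPM (control) and 219 TPM (cKO-labelled), with relative log2 differences of -0.39 and 0.81; the former was 0.41 as deposited. Hsp90aa1 stood at 0.394 of the Hsp90ab1 level in MigRI and 0.229 with Klf4, and at 0.467 in control and 0.422 in the cKO-labelled library. The Klf4 library was thus the one with the smallest share of the heat-inducible form.

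The CCT chaperonin folds actin and tubulin. Its ubiquitous subunits within the naming rule were Cct2, Cct3, Cct4, Cct5, Cct6a, Cct7 and Cct8. These had more TPM with Klf4 than in MigRI and more in the cKO-labelled library than in control. They ranged from 53.5 to 255 TPM in MigRI, from 144 to 605 TPM with Klf4, from 19.4 to 36.04 TPM in control and from 58.7 to 147 TPM in the cKO-labelled library. Relative to the median gene all 7 lay above 0 in both comparisons, with 2 of 7 called higher with Klf4 and 5 of 7 in the cKO-labelled library. For all measured genes the shares called higher were 21.4% and 12.4%, and those with more TPM 71.0% and 78.1%. Tcp1, a further ubiquitous subunit outside the naming rule, lay at 0.37 and -0.43 and is described with prefoldin below. Among the 7 of the rule, Cct5 was the highest subunit, Cct7 the next and Cct2 the lowest in each of the 4 libraries. Cct5 was at 255 TPM (MigRI) and 605 TPM (Klf4), and at 36.04 TPM (control) and 147 TPM (cKO-labelled), relative log2 differences of 0.45 and 1.26. Cct3 was at 95.3 TPM (MigRI) and 423 TPM (Klf4), and at 20.999 TPM (control) and 87.4 TPM (cKO-labelled), and was the subunit called in both comparisons (1.35 and 1.27). Cct8, with the largest difference in the loss experiment, was at 128 TPM (MigRI) and 305 TPM (Klf4), and at 23.4 TPM (control) and 103 TPM (cKO-labelled), relative log2 differences of 0.45 and 1.36. Relative to genes of like coding length the Cct3 and Cct4 calls with Klf4 ended, at 0.73 and 0.58, and Cct5, Cct7 and Cct8 turned below 0 there, to -0.16, -0.08 and -0.16. The median of the Cct family with Klf4 went from 0.74 to 0.01 by this measure, while in the loss experiment it went from 1.06 to 1.03; Cct6a has no coding length and is left out of it. With a filter of 10 TPM the calls in the loss experiment ended too, since the median gene itself was then higher by 1.19 log2. Cct6b, a copy known from testis, was at 1.05 TPM (MigRI) and 5.43 TPM (Klf4), and at 2.46 TPM (control) and 1.65 TPM (cKO-labelled). Its relative log2 differences were 0.86 and -1.12. It was the 1 Cct gene called lower in the loss experiment, beside 16.2% of all genes, and differed there by -0.39 as deposited. Cct8l1 was listed at 0 throughout.

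Prefoldin, which hands unfolded actin and tubulin to CCT, lay mostly below the median gene. Of its 6 subunits, 5 were lower with Klf4 and 3 in the cKO-labelled library, beside 23.6% and 16.2% of all genes. In the cKO-labelled library Vbp1 alone was higher. Pfdn1 was at 449 TPM (MigRI) and 137 TPM (Klf4), and at 287 TPM (control) and 185 TPM (cKO-labelled), relative log2 differences of -2.50 and -1.37. Pfdn2 was at 268 TPM (MigRI) and 87.03 TPM (Klf4), and at 218 TPM (control) and 113 TPM (cKO-labelled), relative log2 differences of -2.40 and -1.67. Vbp1 was at 76.8 TPM (MigRI) and 144 TPM (Klf4), and at 22.4 TPM (control) and 83.2 TPM (cKO-labelled) and was named after its values were seen. The summed prefoldin level was 2.30 times that of the 7 CCT subunits in MigRI, 0.366 times with Klf4, 9.55 times in control and 2.15 times in the cKO-labelled library. Apart from Vbp1, the prefoldin coding sequences have at most 462 nucleotides, and against genes of like length the 5 lower with Klf4 became 2 and the 3 in the loss experiment 1. Pfdn1 and Pfdn2 were then at -1.17 and -1.07 with Klf4 and at -0.75 and -1.06 in the loss experiment, while Pfdn4, Pfdn5 and Pfdn6 were at -0.76, -0.34 and -0.69 with Klf4. Tcp1, the CCT subunit whose symbol lies outside the naming rule, was at 186 TPM (MigRI) and 417 TPM (Klf4), and at 80.9 TPM (control) and 101 TPM (cKO-labelled), relative log2 differences of 0.37 and -0.43.

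**Figure D3:**
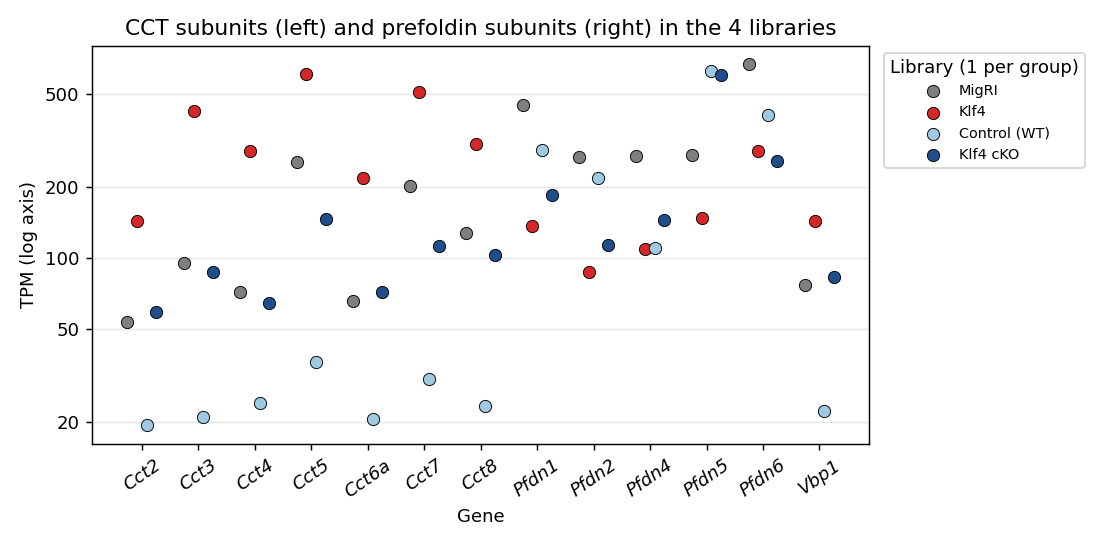
TPM (log axis) of the CCT subunits and of the prefoldin subunits Pfdn1 to Vbp1, 1 point per library. For every CCT subunit the Klf4 point is the highest and the control point the lowest, while for 5 of the 6 prefoldin subunits the MigRI point lies above the Klf4 point.

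The highest relative difference in each comparison belonged to a small heat shock protein. Hspb8, which works with the cochaperone Bag3 in clearing misfolded proteins, was at 8.99 TPM (MigRI) and 131 TPM (Klf4), and at 1.84 TPM (control) and 6.76 TPM (cKO-labelled). Its relative difference of 2.93 with Klf4 was the highest of the measured members, and that in the loss experiment was 0.71. Bag3 itself, a partner outside the naming rule and a target of heat shock factor 1, was at 1.29 TPM (MigRI) and 24.4 TPM (Klf4), and at 1.54 TPM (control) and 2.70 TPM (cKO-labelled), relative log2 differences of 2.68 and -0.20. Hspb8 and Bag3 were thus both high in the Klf4 library and low in the other 3. Hspb1, or HSP27, was at 1.80 TPM (MigRI) and 3.79 TPM (Klf4), and at 2.00 TPM (control) and 27.5 TPM (cKO-labelled), so that 1 library stood apart from the other 3, with relative log2 differences of -0.02 and 2.51. Fibroblasts and muscle cells are known to express Hspb1, Hspb6 and Hspb8. Of the 8 measured fibroblast and endothelial markers, 7 were higher and 1, the endothelial Pecam1, was lower with Klf4. In the cKO-labelled library 2 (Sparc and Dcn) were higher and 0 lower, and the list ranged from -0.999 to 2.95. The part of such cells was not tested. Hspb11, which despite its name is a subunit of the transport machinery of cilia, was at 65.4 TPM (MigRI) and 64.4 TPM (Klf4), and at 33.3 TPM (control) and 35.5 TPM (cKO-labelled), relative log2 differences of -0.82 and -0.65, and the second turned as deposited, to 0.09, and the first against genes of like coding length, to 0.52. Hspb2 and Hspb3 were listed at 0 in all libraries.

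Of the 4 Dnaja genes, 2 were higher and 1 lower with Klf4, beside 21.4% and 23.6% of all genes. Against genes of like coding length these counts were 0 and 2. The lower one relative to the median gene, Dnaja4, was at 0.772 TPM (MigRI) and 0.294 TPM (Klf4). Its difference of -1.25 was -0.45 as deposited. In the cKO-labelled library 1 Dnaja gene was higher and 0 lower, beside 12.4% and 16.2% of all genes. Dnaja2, a cytosolic partner of HSP70, was at 26.9 TPM (MigRI) and 109 TPM (Klf4), and at 10.6 TPM (control) and 42.8 TPM (cKO-labelled), and was called in both comparisons (1.19 and 1.18); against genes of like length the values were 0.54 and 0.93. Dnaja3, its mitochondrial relative, was at 6.15 TPM (MigRI) and 30.5 TPM (Klf4), and at 2.02 TPM (control) and 4.59 TPM (cKO-labelled), relative log2 differences of 1.35 and 0.15. Dnaja1 was at 75.7 TPM (MigRI) and 89.9 TPM (Klf4), and at 52.2 TPM (control) and 93.1 TPM (cKO-labelled), relative log2 differences of -0.55 and 0.08, and the first was 0.24 as deposited. Dnaja1, Dnaja2 and Dnaja3 thus did not share a pattern: Dnaja2 was low in MigRI and control, while Dnaja1 varied least.

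Of the 9 measured Dnajb genes, 3 were higher and 2 lower with Klf4, beside 21.4% and 23.6% of all genes. In the cKO-labelled library 2 were higher and 1 lower, beside 12.4% and 16.2% of all genes. Against genes of like coding length 0 and 2 were there. Dnajb2, a J protein that binds ubiquitin, was at 3.22 TPM (MigRI) and 34.1 TPM (Klf4), and at 4.83 TPM (control) and 3.45 TPM (cKO-labelled), relative log2 differences of 2.26 and -1.13. It stood apart in the Klf4 library alone, and it was the 1 member higher with Klf4 and lower in the cKO-labelled library. Dnajb6, which holds back aggregates and carries the 3-unit match shown above, was the 1 member with the reverse: it was at 100.02 TPM (MigRI) and 76.4 TPM (Klf4), and at 34.9 TPM (control) and 133 TPM (cKO-labelled), relative log2 differences of -1.18 and 1.17. Its levels in all libraries lay between 34.9 and 133 TPM. Neither opposite pattern was called under every alternative: as deposited Dnajb2 differed by -0.39 in the loss experiment and Dnajb6 by -0.38 with Klf4. Dnajb14, in the membrane of the endoplasmic reticulum, was at 2.42 TPM (MigRI) and 16.6 TPM (Klf4), and at 0.649 TPM (control) and 5.04 TPM (cKO-labelled), relative log2 differences of 1.58 and 1.14. Dnajb11, a soluble J protein of that compartment, was at 95.01 TPM (MigRI) and 129.96 TPM (Klf4), and at 20.5 TPM (control) and 66.8 TPM (cKO-labelled), relative log2 differences of -0.35 and 0.92. Both were lowest in control. Dnajb13, known from the sperm flagellum, was at 20.8 TPM (MigRI) and 3.28 TPM (Klf4), and at 11.8 TPM (control) and 22.3 TPM (cKO-labelled); its difference of -3.14 with Klf4 was the lowest of the measured members. It shares exon sequence on the opposite strand with Ucp2, which was at 99.6 TPM in MigRI, 216 TPM with Klf4, 63.6 TPM in control and 402 TPM in the cKO-labelled library.

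Of the 22 measured genes of Dnajc, the largest family, 7 (31.8%) were lower and 3 (13.6%) higher with Klf4, beside 23.6% and 21.4% of all genes, with a median of -0.42 that was 0.37 as deposited. In the loss experiment 2 were lower and 3 higher, beside 16.2% and 12.4% of all genes, with a median of 0.43. Against genes of like coding length 8 were lower and 2 higher with Klf4, with a median of -0.51. By that measure 3 were lower and 2 higher in the loss experiment, with a median of 0.18. Dnajc15, or MCJ, sits in the inner mitochondrial membrane and is known as a brake on complex I in CD8 T cells. It was at 833 TPM (MigRI) and 175 TPM (Klf4), and at 1418 TPM (control) and 817 TPM (cKO-labelled), relative log2 differences of -3.03 and -1.53. Dnajc19, a part of the mitochondrial import motor, was at 437 TPM (MigRI) and 96.7 TPM (Klf4), and at 457 TPM (control) and 217 TPM (cKO-labelled), relative log2 differences of -2.96 and -1.81. In both experiments the library with the lower level was the one with Klf4 or labelled Klf4 cKO. Their coding sequences are 447 and 471 nucleotides long. Against genes of like length the differences stayed negative: -1.70 and -2.58 with Klf4, and -0.91 and -2.13 in the loss experiment. As deposited, Dnajc15 differed in the loss experiment by -0.79, which is under 2-fold.

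Among the other Dnajc members, Dnajc9, a chaperone of histones, was at 235 TPM (MigRI) and 82.5 TPM (Klf4), and at 47.5 TPM (control) and 134 TPM (cKO-labelled), relative log2 differences of -2.29 and 0.74. Dnajc1, which docks ribosomes at the endoplasmic reticulum, was at 18.04 TPM (MigRI) and 7.03 TPM (Klf4), and at 15.6 TPM (control) and 24.9 TPM (cKO-labelled), relative log2 differences of -2.04 and -0.10. Each of these was lowest or second lowest with Klf4. Dnajc8, of the splicing machinery, varied little, at 309 TPM (MigRI) and 245 TPM (Klf4), and at 226 TPM (control) and 225 TPM (cKO-labelled), with relative log2 differences of -1.13 and -0.74 that were -0.34 and -0.0040 as deposited. Dnajc22 was at 2.77 TPM (MigRI) and 40.4 TPM (Klf4), and at 0.165 TPM (control) and 3.36 TPM (cKO-labelled), relative log2 differences of 2.66 and 1.17, so it was high with Klf4 and close to absent in control. Dnajc12, a cochaperone of the aromatic amino acid hydroxylases, was at 13.2 TPM (MigRI) and 16.3 TPM (Klf4), and at 1.54 TPM (control) and 12.98 TPM (cKO-labelled), relative log2 differences of -0.51 and 1.72. Dnajc30, a small mitochondrial J protein, was at 27.2 TPM (MigRI) and 34.4 TPM (Klf4), and at 9.14 TPM (control) and 44.9 TPM (cKO-labelled), relative log2 differences of -0.46 and 1.44. Both were lowest in control. Dnajc25 was at 15.1 TPM (MigRI) and 19.7 TPM (Klf4), and at 12.003 TPM (control) and 12.1 TPM (cKO-labelled), relative log2 differences of -0.42 and -0.73. Of the exons of Dnajc30, 436 bases are shared with Bud23 on the opposite strand, and 32 of the 83 members share some exon sequence with another annotated gene.

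By compartment, 10 members of the endoplasmic reticulum had 2 higher and 1 lower with Klf4 and 1 higher and 0 lower in the cKO-labelled library, with medians of -0.05 and 0.44. Of all genes 21.4% were higher and 23.6% lower with Klf4, and 12.4% and 16.2% in the cKO-labelled library. The 8 mitochondrial members split: with Klf4, Hspa9, Dnaja3 and Dnajc11 were higher and Hspe1, Dnajc15 and Dnajc19 lower, and in the loss experiment 2 were higher (Hspd1 and Dnajc30) and the same 3 lower. Beside genes of like coding length, 1 was higher and 2 lower in each comparison. The 3 that were lower in both comparisons have coding sequences of at most 471 nucleotides, and the others of at least 657.

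The 2 comparisons share no library, so their values could be set side by side. Higher in both were 4 members (Cct3, Dnaja2, Dnajb14 and Dnajc22) and lower in both 3 (Dnajc15, Dnajc19 and Hspe1). These were 6.15% and 4.62% of the measured members, beside 3.21% and 9.47% of all measured genes. Against genes of like coding length each of the 4 was called in 1 comparison at most: Cct3 was at 0.73 with Klf4, Dnaja2 at 0.54 and 0.93, and Dnajb14 and Dnajc22 at 0.71 and 0.62 in the loss experiment. Opposite calls were made for 2 members, Dnajb2 (all genes 0.708%) and Dnajb6 (all genes 1.83%). Of the others, 11 were higher with Klf4 alone, 7 lower with Klf4 alone, 8 higher in the cKO-labelled library alone, 1 lower there alone, and 29 were called in neither; of all genes 17.5%, 12.3%, 7.37%, 6.01% and 41.6% were. No difference between the comparisons was tested.

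**Figure D4:**
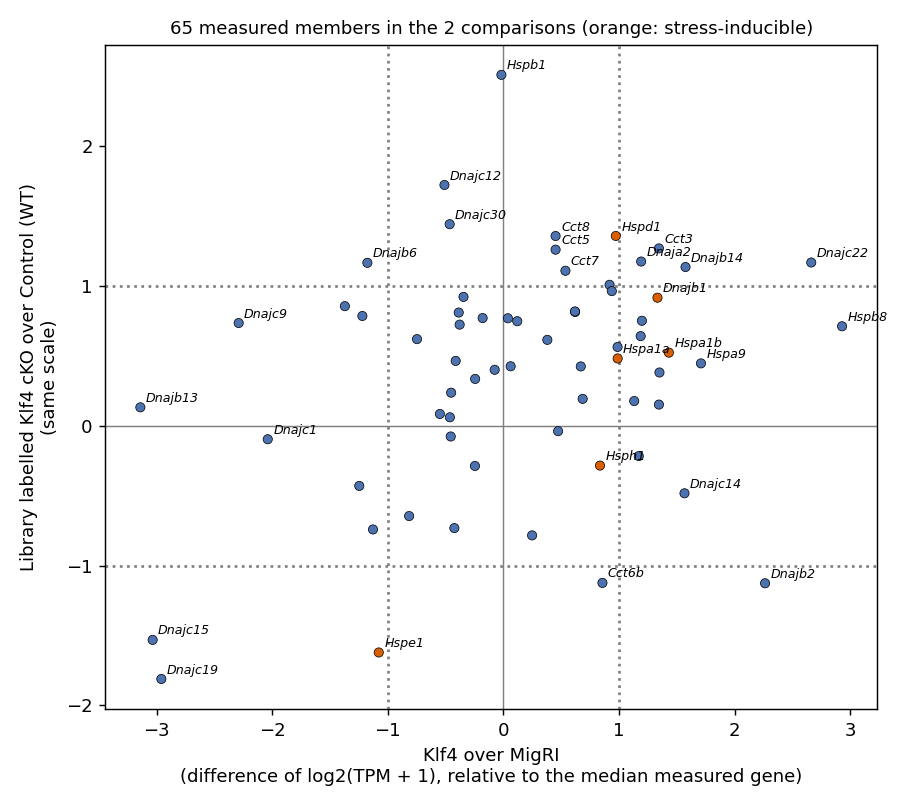
Relative differences of the 65 measured members, Klf4 over MigRI (x) against the cKO-labelled library over control (y), 1 point per gene, with dotted 2-fold limits. Dnajc15, Dnajc19 and Hspe1 lie at the lower left, Dnajb2 at the lower right and Hspb1 at the top.

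The differences of all genes varied with coding length. Genes were put into 10 classes of equal size by longest coding sequence. In the shortest class, up to 462 nucleotides, the median relative difference was -1.33 with Klf4 and -0.62 in the loss experiment, the lowest of the classes in both. The relation was not one-way. With Klf4 the highest median was 0.65, from 1230 to 1452 nucleotides, and the longest class was at -0.11. In the loss experiment the highest was 0.55, from 846 to 1026 nucleotides, and the 3 classes from 1743 nucleotides were at -0.05, -0.21 and -0.33. Among measured members, 4 fell into the shortest class (Hspb11, Hspe1, Dnajc15 and Dnajc24), and 64 of the 65 measured had a coding length. Against genes of the same class, 8 members were higher and 13 lower with Klf4, and 9 and 7 in the loss experiment. The share of all genes called by this measure was not computed, so such counts, here and elsewhere, cannot be set beside all genes. Hspb8 kept a difference of 3.31 with Klf4 and Hspb1 one of 2.19 in the loss experiment, with coding lengths of 588 and 627 nucleotides. Whether transcript length had a part in the single differences was not tested.

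**Figure D5:**
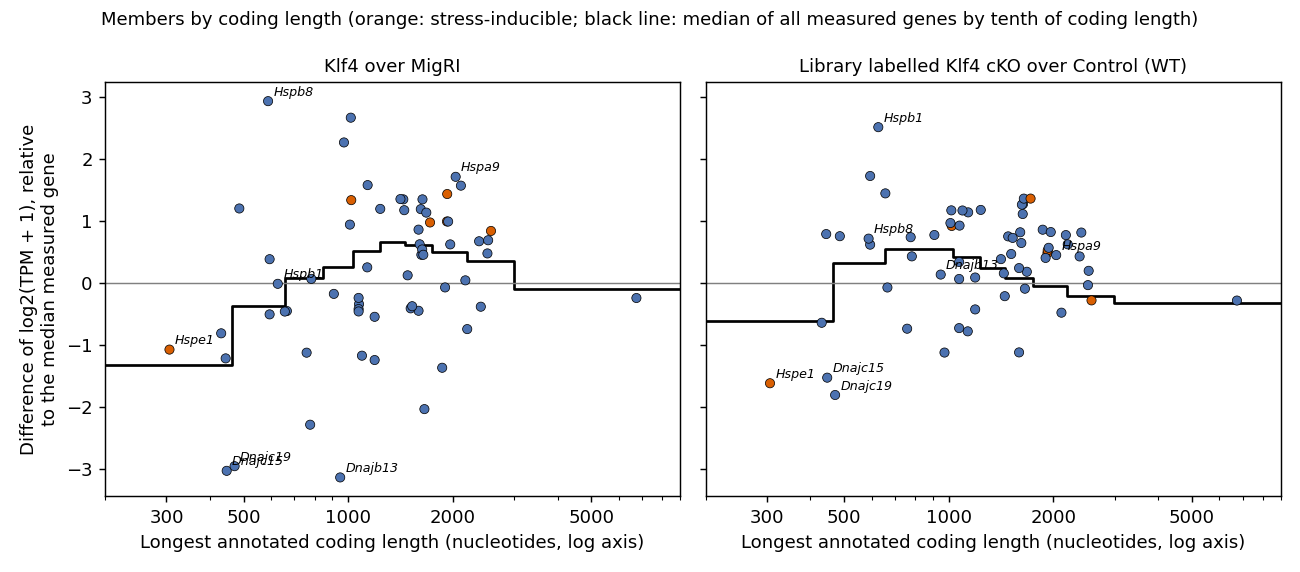
Relative difference of each measured member against its longest annotated coding length (log axis), with the median of all measured genes in each class of length as a black line. Hspe1 lies near the line with Klf4 and below it in the loss experiment, and Dnajc15 and Dnajc19 lie below it in both.

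Partners outside the naming rule were taken from a list of 62 genes, 60 of them measured. With Klf4, 16 were higher and 10 lower, and in the loss experiment 13 were higher and 6 lower, with medians of 0.27 and 0.46. These were 26.7% and 16.7% of them, beside 21.4% and 23.6% of all genes, and 21.7% and 10%, beside 12.4% and 16.2%. Against genes of like coding length, 10 were higher and 8 lower with Klf4, with a median of -0.06, and 7 and 5 in the loss experiment, with a median of 0.11. Hsf1, the factor that switches on the inducible members, was named after its values were seen and was at 6.61 TPM (MigRI) and 26.4 TPM (Klf4), and at 2.74 TPM (control) and 6.91 TPM (cKO-labelled), relative log2 differences of 1.05 and 0.34. Against genes of like coding length these were 0.44 and 0.27. The 3 measured genes of the heat shock factor group (Hsf1, Hsf2 and Hsbp1) had medians of -0.29 with Klf4 and -0.87 in the loss experiment. Hsbp1, which binds heat shock factor 1, was at 276 TPM (MigRI) and 255 TPM (Klf4), and at 383 TPM (control) and 199 TPM (cKO-labelled), relative log2 differences of -0.91 and -1.68. Its coding sequence has 228 nucleotides, and against genes of like length the first turned to 0.42 and the second was -1.06. As deposited they were -0.11 and -0.94. Of 20 cochaperones of HSP70 and HSP90, 5 were higher and 0 lower with Klf4 and 5 higher and 2 lower in the loss experiment, and against genes of like coding length 3 and 1, and 1 and 3. Chordc1, an HSP90 cochaperone, was at 35.1 TPM (MigRI) and 38.7 TPM (Klf4), and at 44.02 TPM (control) and 21.1 TPM (cKO-labelled), relative log2 differences of -0.66 and -1.76.

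Of 6 heat-inducible genes of other kinds, 4 were higher and 1 lower with Klf4, where 21.4% and 23.6% of all genes were. The lower one, the ubiquitin gene Ubb, was the most abundant of them, at 7649 TPM (MigRI) and 4992 TPM (Klf4), and at 1693 TPM (control) and 4165 TPM (cKO-labelled), relative log2 differences of -1.41 and 0.56. Hmox1, the enzyme that breaks down heme, was at 10.6 TPM (MigRI) and 174 TPM (Klf4), and at 1.97 TPM (control) and 22.6 TPM (cKO-labelled), relative log2 differences of 3.13 and 2.25. Serpinh1, or HSP47, the collagen chaperone of matrix-making cells, was at 28.2 TPM (MigRI) and 406 TPM (Klf4), and at 9.62 TPM (control) and 14.8 TPM (cKO-labelled), relative log2 differences of 3.01 and -0.16. The summed fibroblast and endothelial, macrophage, mast cell and neutrophil, and early response markers were also highest with Klf4. Those of CD8 T cells and tumour epithelium were not. The part of other cells in the Serpinh1 difference was not tested. In the endoplasmic reticulum, Sil1, which releases nucleotide from BiP, was at 21.1 TPM (MigRI) and 71.7 TPM (Klf4), and at 1.75 TPM (control) and 20.96 TPM (cKO-labelled), relative log2 differences of 0.92 and 2.26, and Xbp1, a transcription factor of the unfolded protein response, at 81.8 TPM (MigRI) and 234 TPM (Klf4), and at 11.7 TPM (control) and 53.1 TPM (cKO-labelled), relative log2 differences of 0.71 and 1.35. Of 16 measured genes of that compartment, 4 were higher and 3 lower with Klf4, beside 21.4% and 23.6% of all genes. In the loss experiment 5 were higher and 0 lower, beside 12.4% and 16.2% of all genes. Against genes of like coding length the counts were 2 and 3, and 4 and 0. Hscb, a mitochondrial J protein for iron-sulfur clusters, was lower with Klf4, at 84.7 TPM (MigRI) and 31.98 TPM (Klf4), and at 44.2 TPM (control) and 62.2 TPM (cKO-labelled), relative log2 differences of -2.17 and -0.26.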

How the data were processed

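The authors deposited 1 table of TPM per library, with 1 library in each group. Trimmomatic, HISAT2, StringTie, edgeR and the build mm10 stand in the submitters' processing notes, with no role or version; the annotation is not given in the sources used here. Per the labels' protocols, TRI Reagent gave the RNA and a SMART-seq v4 kit for ultra low input the libraries. Since TPM have 1 total in every library, abundant or short transcripts lower all other values there, and no counting error can be given.

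The tables held 45777 entries. In the table of the control library, 26 symbols had become dates, 22 were mapped back, and 4 genes were left out. Differences are of log2(TPM + 1), within an experiment, minus the median over genes whose mean reached 1 TPM. A difference on this scale understates the change of low genes. Coordinates and coding lengths came from GENCODE vM21 (mm10) and promoters from RefSeq GRCm38.p6. Python 3.11.15 with pandas 2.3.3 and Biopython 1.88 was used, and the computation was tested on simulated data. Planned protein comparisons were not made.

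Named genes followed a rule: the 6 stress-inducible members, the 3 most abundant of each family, the 5 highest and 5 lowest differences per comparison among members at 10 TPM or more, members listed at 0 in 1 library of an experiment and at 10 TPM or above in the other, and the 3 highest and lowest partners. Cct2, Cct4, Cct6a, Cct6b, Cct8l1, Cdh5, Dcn, Dnaja4, Dnajc11, Dnajc14, Dnajc24, Hsf1, Hspb2, Hspb3, Hspb6, Pecam1, Pfdn4, Pfdn5, Pfdn6, Sparc, Tcp1, Ubb, Vbp1, Ucp2 and Hspd1-ps3 were named after their values were seen. Members and lists were chosen with earlier results of these data known. Differences were recomputed in 10 other ways (pseudocounts of 0.1 and 5, no filter or means of 5 and 10 TPM, no centring, median of ratios, quantile normalization, and rescaling without mitochondrial, ribosomal protein and receptor genes or without the 50 most abundant genes), and in 1 more, by coding length, that was chosen after seeing the data.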

Additional observations from a re-analysis of the deposited data

How the results depend on the processing

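The values below are relative to the median gene unless noted, and 4 summary values were followed in each comparison: the counts of members higher and lower, the median over measured members, and the median of the 6 stress-inducible members. As deposited, the counts became 33 higher and 5 lower for Klf4 over MigRI and 41 and 1 for the cKO-labelled library over control. The medians became 1.04 and 1.26 over measured members and 1.77 and 1.24 over stress-inducible members. Without a filter the counts were 29 and 6, and 33 and 3, the stress-inducible medians 1.5 and 1.0 and those over measured members 0.57 and 0.92, since genes near 0 then set the median gene. With a pseudocount of 5, the lower count with Klf4 was 6, the counts in the loss experiment were 20 and 3, and the stress-inducible median with Klf4 was 1.05. With a pseudocount of 0.1 the lower count in the loss experiment was 8 and the stress-inducible median there 0.28. Filters of 5 and 10 TPM left 5 and 1 higher members in the loss experiment, and the stress-inducible median with Klf4 was 1.00 and 1.13. In the loss experiment that median was 0.19 and 0.05, and the median over measured members 0.33 and 0.19. Median of ratios scaling left 8 higher members in the loss experiment, with a stress-inducible median of 0.27, and the median over measured members with Klf4 was 0.13. Quantile normalization left 7 there, with medians of 0.13 and 0.32, and 7 lower with Klf4, where the median over measured members was 0.44. Against genes of like coding length, 8 members were higher with Klf4, the medians with Klf4 were 0.00 over measured and 0.49 over stress-inducible members, and the Hspe1 difference with Klf4 turned from -1.08 to 0.25; the cause was not tested for these changes beyond the shift of the median gene. Rescaling without the 50 most abundant genes, or without mitochondrial, ribosomal protein and receptor genes, changed none of these 8 values by over 1.5 times or across 2-fold. No paired analysis was possible because each group held 1 library. The unknown depth limits what can be said of members near 1 TPM.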

Other observations

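Ratios of members within a library do not depend on the scaling between libraries. Dnajb1 stood at 0.144 of the Hspa8 level in MigRI, 0.185 with Klf4, 0.115 in control and 0.152 in the cKO-labelled library. The ratio of Hspa1b to Hspa1a was 1.013 in MigRI, 1.02 in control and 1.05 in the cKO-labelled library, and 1.39 with Klf4.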
